A study of Caenorhabditis elegans with 2 samples.

Results

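Proteasome subunit genes are described here in whole wild-type Caenorhabditis elegans of the N2 strain, with 1 array for animals kept in the dark with anatase nanoparticles (500 µg/ml) and 1 array for unexposed animals. The members are all genes whose symbol in the platform's probe-to-gene annotation is pas-, pbs-, rpt- or rpn- with a number, read by probe sets that name that gene alone. The rule gave 33 genes and 39 probe sets, out of 17118 genes and 20766 probe sets that name a single gene. Both groups were wild type, were synchronized, were grown on E. coli OP50 and were placed in the same liquid worm medium as far as the labels state it; anatase, a crystal form of titanium dioxide, is the only labelled difference. Both arrays are labelled replicate 3. How old the worms were, how long they were exposed and how many went into an array is not stated in the material used here. The symbol and gene number of all 33 genes matched a RefSeq gene table. No sequences are printed, as none were among the material used.

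The proteasome is the protease that degrades proteins tagged with ubiquitin, and every cell needs it. Its core particle is a barrel of alpha rings (pas genes) around beta rings (pbs genes), and the proteolytic sites lie inside, on some of the beta subunits. The regulatory particle caps the barrel: its base holds a ring of ATPases (rpt genes) that unfold the substrate, and its other subunits (rpn genes) bind ubiquitin, remove it and hold the lid together. In C. elegans, loss of proteasome activity is known to raise the transcription of most subunits together through the transcription factor SKN-1A.

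The table holds 22548 probe sets, and the median intensity was 123.1 for the control and 117.8 for the exposed array. As each group is a single array, replicate error cannot be estimated, no difference was tested, and the precision is limited by the number of arrays. The only spread that can be measured is technical: among genes in the brightest 25% that were read by exactly 2 probe sets, the SD of a single probe set's log2 difference was 0.18 (651 genes). In whole worms, fewer cells of a type and less RNA per cell cannot be told apart. No measured gene of 6 sets of tissue markers was at 0, the lowest intensity being 43.8, and 4 sets had a higher sum on the exposed array. The summed intensity of 6 intestinal markers was 12691 in control and 11168 in exposed worms, and that of 5 hypodermal and cuticle markers was 22135 and 20452. Of the intestinal markers 4 were lower and 2 higher, with log2 differences from −0.90 to 0.16, while all 5 hypodermal and cuticle markers were lower. The sums for muscle, germline, sperm (4 of 5 markers measured) and neuronal markers were higher on the exposed array, for example 4915 and 5139 for germline. In each of the muscle, germline and sperm sets 1 marker was lower, and all 5 neuronal markers were higher. The part of such tissue differences in the values below was not tested.

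Most proteasome transcripts were close to equal on both arrays. No subunit gene differed by 1.5-fold or more, where 14.3% of the 13605 genes compared did, and none by 2-fold, where 4.73% did. Differences are exposed minus control on the scale of log2(intensity + 16), and they ran from −0.27 for rpn-6.1 to 0.48 for rpn-3. The SD over the 33 genes was 0.15, against 0.44 over all genes compared. All 33 genes passed the brightness filter, and 30 of them lay in the brightest 25% of genes. Differences are small there for genes in general: the SD was 0.23, and of 3401 genes 2.76% differed by 1.5-fold or more and 0.323% by 2-fold or more. The SD over the 30 members among them was 0.14. A difference of at most 0.1 log2 units was found for 22 of the 33 subunits, against 26.4% of all genes and 41.6% of the brightest 25%. This differed by probe set type. For the 20 subunits read only by shared probe sets, whose type can also detect related transcripts, 80% lay within 0.1 (SD 0.10). For the 10 read only by probe sets meant for a single transcript, 40% did (SD 0.22), near the share of the brightest 25%. The part of probe set type in the evenness was not tested. The median difference was −0.04, beside −0.02 for all genes, and 19 subunits were lower and 14 higher, so 57.6% were lower where 53.2% of all genes were. Among the brightest genes, 18 of the 30 subunits were lower, where 47% of genes were. The direction depended on the scaling: after median centring of each array the member median was 0.02, with 13 lower and 20 higher, while under loess and quantile normalization 19 were lower.

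**Figure D1:**
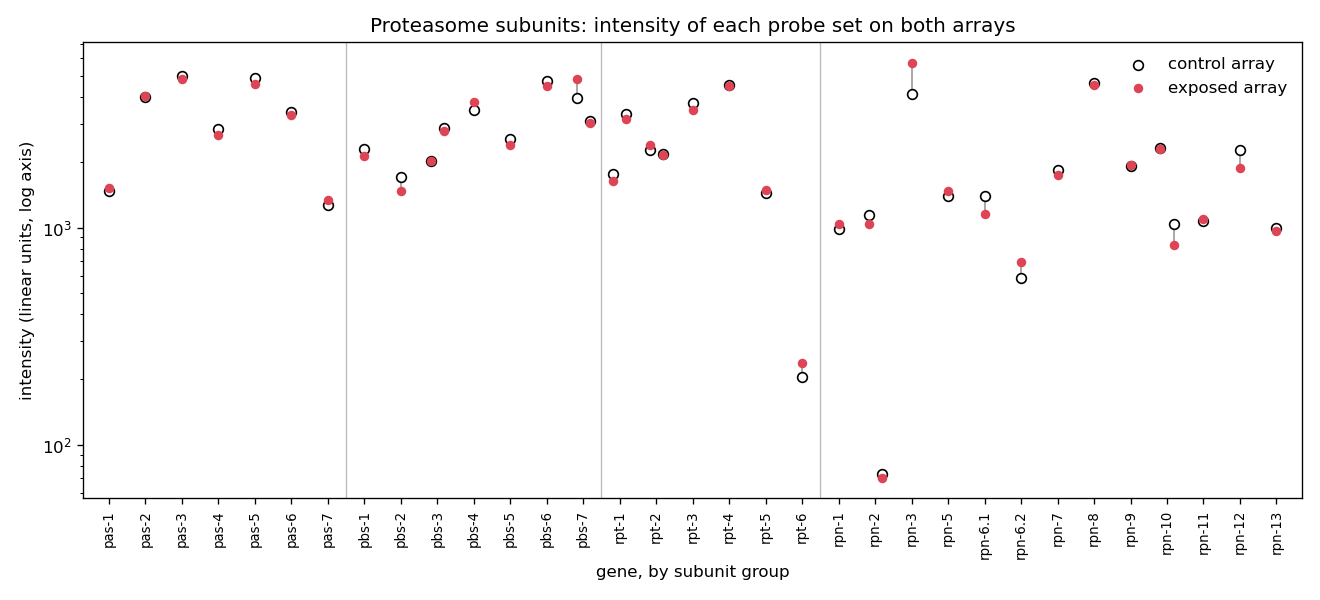
Intensity (linear units on a log axis) of each of the 39 probe sets of the 33 proteasome subunit genes, with the control array as open circles and the exposed array as filled circles joined by a line; genes with 2 probe sets have 2 columns. Most pairs overlap, and the widest gap among bright probe sets is that of rpn-3 (4100 and 5708).

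The alpha ring, which forms the gate through which substrates enter the core particle, was the most even group, with an SD of 0.06 over 7 genes and a median difference of −0.05, which turned to 0.01 after median centring. The intensity of pas-1 was 1479 in control worms and 1520 in exposed worms, 0.04 higher on the log2 scale. That of pas-2 was 4005 and 4023, a difference of 0.01. That of pas-7 was 1274 and 1338, the highest of the ring at 0.07. These 3 genes read slightly higher in exposed worms, and the remaining 4 slightly lower. For pas-3 the intensities were 4982 and 4807 (−0.05), and for pas-6 they were 3396 and 3290 (−0.05). For pas-5 they were 4877 and 4588, a difference of −0.09. The lowest value of the ring was that of pas-4, from 2837 to 2660, also −0.09. All 7 lay within 0.1 log2 units of equal signal.

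In the beta ring 5 of 7 genes were lower, with a median of −0.08. The proteolytic subunits are, by their counterparts in other eukaryotes, pbs-1, with caspase-like activity, pbs-2, with trypsin-like activity, and pbs-5, with chymotrypsin-like activity. pbs-1 read 2286 in control worms and 2130 in exposed worms, a log2 difference of −0.10. pbs-2 had 1715 and 1467, a difference of −0.22, the lowest of the ring. pbs-5 had 2547 and 2410, a difference of −0.08. All 3 proteolytic subunits thus read lower in exposed worms, but only pbs-2 by more than the technical SD of 0.18. They stayed lower under the 3 scalings. As each was read by 1 shared probe set, no other alternative could turn its sign. Of the subunits without a proteolytic site, pbs-6 was at 4744 and 4490 (−0.08), and pbs-3 was read by a pair of probe sets, at 2030 and 2023 and at 2864 and 2785, with a mean difference of −0.02. pbs-4 was higher, at 3463 and 3796, a difference of 0.13. The value of pbs-7, also 0.13, rested on 1 of its 2 probe sets: one read 3963 and 4839 (0.29), the other 3078 and 3040 (−0.02). Only pbs-4 had a probe set of the type meant for a single transcript, so 6 of the 7 genes of the ring drop out when shared probe sets, whose type can also detect related transcripts, are left out.

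The 6 ATPases of the base, which unfold substrates and thread them into the core, were split evenly, 3 higher and 3 lower, with a median of 0.0032 that turned negative under loess (−0.0015) and quantile normalization (−0.0052). rpt-6 had the largest value, 0.21, but at low signal: its intensities were 204.9 and 239. rpt-5 was at 1440 and 1495, a difference of 0.05. rpt-2 had a difference of 0.02, from one probe set at 2282 and 2387 and another at 2180 and 2148 whose differences, 0.06 and −0.02, had opposite signs. On the lower side, rpt-3 was at 3758 and 3490, a difference of −0.11. rpt-1 was read by a pair of probe sets that both gave lower values, 1768 and 1642 (−0.11) and 3312 and 3163 (−0.07). The smallest difference of the base ATPases was that of rpt-4, at 4511 and 4465, −0.01, and it turned to 0.04 after median centring.

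The largest differences were found among the 13 rpn genes, whose SD was 0.20. rpn-3, a lid subunit with a PCI domain, a fold that lid subunits use to hold each other, read 4100 in control worms and 5708 in exposed worms, 1.39-fold, a log2 difference of 0.48. It stood 0.23 log2 units above the next highest member, and 5.15% of the brightest 25% of genes had a larger absolute difference. That share is for a gene picked as the extreme of the 33 subunits, 30 of which lay in that class. The single probe set of rpn-3 is of the type meant for 1 transcript. Over 9 alternatives the value ran from 0.46 to 0.53, but the brightness filters and the choices of probe sets could not change it. Without rpn-3 the SD over the other 32 subunits was 0.12 and their median stayed at −0.04. At the other end, rpn-6.1, another lid subunit, known in C. elegans for its link to proteasome activity and lifespan in germline-deficient worms, was at 1394 and 1152, 0.828-fold, a difference of −0.27. Its paralogue rpn-6.2 differed in the other direction, from 582.9 to 693.9, a difference of 0.25, so the paralogues lay 0.52 log2 units apart. rpn-6.1 was read by a shared probe set and rpn-6.2 by one meant for a single transcript. rpn-12, also of the lid, was at 2263 and 1884, a difference of −0.26.

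The rest of the lid varied little. rpn-5 was at 1399 and 1472 (0.07), and rpn-9 at 1919 and 1933 (0.01). rpn-7 was at 1842 and 1737, a difference of −0.08. rpn-11, the deubiquitinase that removes the ubiquitin chain before degradation, was at 1066 and 1090, a difference of 0.03. Its partner rpn-8, which has the same fold without the activity, was at 4647 and 4518, a difference of −0.04. Over the 9 lid genes the median was 0.01, with 5 higher and 4 lower, and the SD of 0.23 came mainly from rpn-3, rpn-6.1, rpn-6.2 and rpn-12, the only lid genes past 0.2 in either direction.

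Of the 4 subunits that work beside the ATPases in the base, 3 were lower. rpn-1, a large scaffold that also docks ubiquitin shuttles, was at 988.6 and 1040, a difference of 0.07. rpn-2, its related scaffold, was lower in both of its probe sets, 1142 and 1038 (−0.14) and, at much lower signal, 73.7 and 70.7 (−0.05). The ubiquitin receptor rpn-13 was at 991.6 and 965.3, a difference of −0.04. The ubiquitin receptor rpn-10, which in C. elegans also takes part in sex determination, had a mean difference of −0.17, but its probe sets disagreed: the one for a single transcript read 2322 and 2290 (−0.02) and the shared one 1043 and 827.2 (−0.33).

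**Figure D2:**
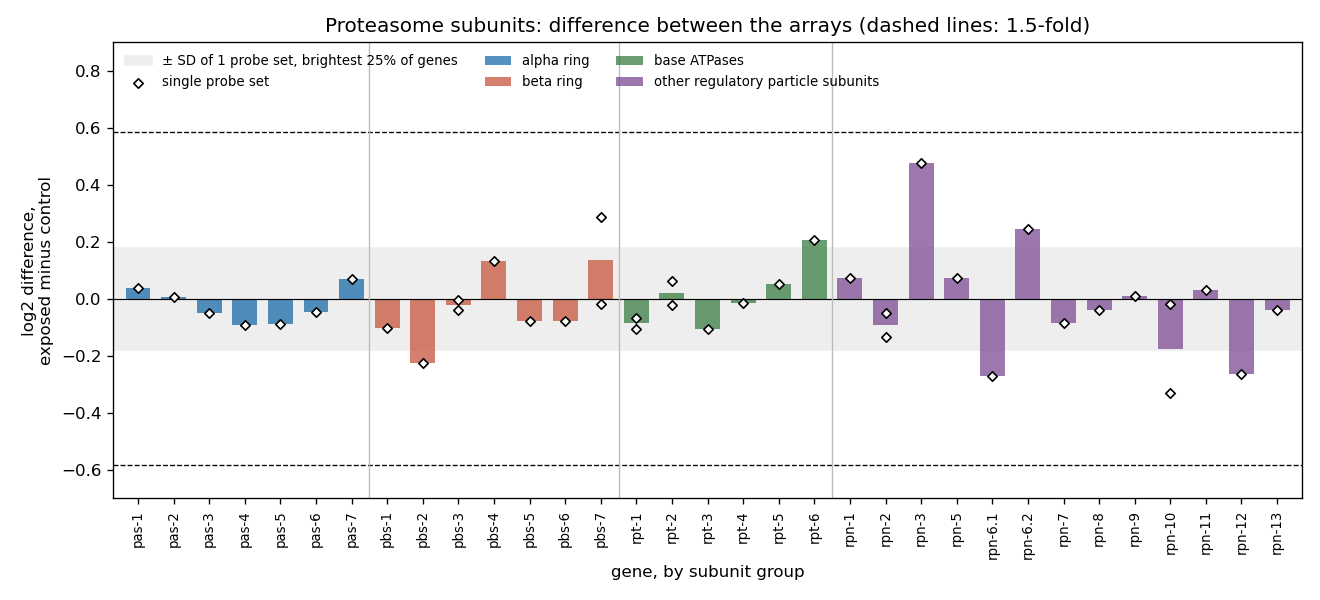
Log2 difference (exposed minus control) of each proteasome subunit gene as bars coloured by subunit group, with each probe set as a diamond, the technical SD of a single probe set (0.18) as a grey band and 1.5-fold as dashed lines. Of the 33 bars, 6 are larger than 0.2 in either direction, none reaches 1.5-fold, and the pairs of pbs-7 and rpn-10 are the ones that lie farthest apart.

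The 6 subunits read by 2 probe sets give the only check within the data. The signs of both probe sets matched for 4 of them (pbs-3, rpn-2, rpt-1 and rpn-10) and differed for pbs-7 and rpt-2. For genes with 2 probe sets the share of matching signs was 58.1% over all genes compared and 61.1% in the brightest 25%. The technical SD from these 6 pairs was 0.13, nearly the SD of 0.15 between the subunits themselves. Most subunits thus differed by less than the technical spread of a probe set. An absolute difference above 0.18, the technical SD of the brightest 25% of genes, was found for 6 subunits (rpn-3, rpn-6.1, rpn-12, rpn-6.2, pbs-2 and rpt-6), with rpn-3 the largest. The same 6 of the 33 subunits were past 0.2. So were 6997 of all 13605 genes compared and 981 of the 3401 in the brightest 25%, so such values are not particular to the subunits. rpn-6.2, rpt-6 and rpn-2 lay in the next 25% by brightness, where the technical SD was 0.24. Each of these 6 was read by 1 probe set.

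**Figure D3:**
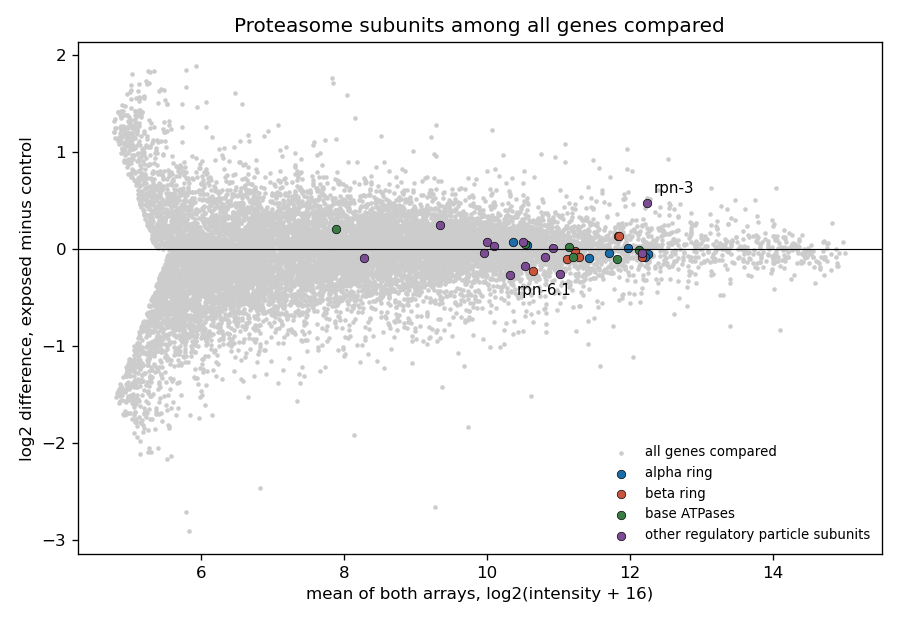
Log2 difference (exposed minus control) against the mean of both arrays as log2(intensity + 16) for the 13605 genes compared (grey), with the proteasome subunits in colour. The subunits lie among the brighter genes and within a narrow band around 0, with rpn-3 highest at 0.48 and rpn-6.1 lowest at −0.27.

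The subunit genes are scattered over the genome: in the gene order of the RefSeq table (assembly WBcel235), none of the 66 protein-coding genes directly beside a subunit gene is itself a subunit gene. Of these neighbours, 53 could be compared on the arrays, with a median difference of 0.01. They were dimmer as a set than the subunits, with 35 of 53 in the brightest 25% of genes, and the 5 past 1.5-fold had no intensity above 167.1 on either array. The gene just before rpn-3 is hsp-110, a co-chaperone of the cytosolic heat shock system, and this neighbour was singled out after its value was seen. Its probe sets read 3856 and 5666 (0.55) and 2706 and 3831 (0.50), so it was higher in exposed worms by about as much as rpn-3. The gene on the other side of rpn-3, mrpl-32, a mitochondrial ribosomal protein gene, was nearly equal on both arrays, at 1709 and 1708. Beside rpn-6.1, let-711 was at −0.10 and F57B9.1 at 0.01. Beside rpn-12, the shuttle factor gene rad-23 was at 0.12 and nep-1 at −0.24.

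The lists of factors that act on the proteasome or feed it held some wider differences. Among 6 genes of the SKN-1A list, which also counts wdr-23, an antagonist of SKN-1, 4 were higher, with a median of 0.12 and an SD of 0.26. Without shared probe sets, which leaves out wdr-23, the median of the remaining 5 was 0.21. skn-1 itself, the gene that encodes SKN-1A, had a mean difference of 0.51. Its 3 probe sets were not assigned to SKN-1A or to another product of the gene. They read 170.1 and 188.6 (0.14), 27.8 and 69.8 (0.97), and 268.7 and 368.7 (0.43). All 3 were higher, and the largest value came from the dimmest one. wdr-23 was at 1043 and 894.9, a difference of −0.22. Among 6 proteasome-associated factors the median was 0.01, though −0.0005 after loess and −0.05 over the 2 left without shared probe sets: the ubiquitin shuttle ubql-1 was highest at 0.32, with both probe sets higher, rad-23 was at 0.12, and dss-1, a small subunit of the regulatory particle that bears another name, was at 2208 and 2231, a difference of 0.01.

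Ubiquitin itself was read at high signal on both arrays. The polyubiquitin gene ubq-1 was at 6303 and 6545 in one probe set and 10825 and 10444 in the other, a mean difference of 0.0012, and ubq-2, a fusion of ubiquitin with a ribosomal protein, was at 15133 and 13752, a difference of −0.14. The list of ubiquitin, its activating enzyme and the conjugating enzymes had 6 genes compared and a median of −0.02 (0.04 after median centring). Its highest value was that of uev-3, at 0.20. Among the probe sets that name a single gene, none names a gene with a ubc symbol. The CDC-48 complex, a segregase that pulls ubiquitin-tagged proteins out of complexes and membranes, had 11 genes, 6 higher and 5 lower, and a median of 0.04. Its adaptor gene ufd-1 was at 2889 and 1896, a difference of −0.60 in a shared probe set, and was the one gene of the list past 1.5-fold. Both genes for the segregase itself read lower. cdc-48.1 was at 603.4 and 529.6 (−0.18) in a shared probe set. cdc-48.2 had a mean difference of −0.27, from −0.37 in a shared probe set and −0.17 in one meant for a single transcript.

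Of 31 genes of cullin ligases and their activation by neddylation, 16 were higher and 15 lower, with a median of 0.02. rfl-1, a subunit of the enzyme that activates the ubiquitin-like protein NED-8, was the one past 1.5-fold, at 1678 and 2560, a difference of 0.60, and the Skp1-related gene skr-5 was at −0.43. Among 17 deubiquitinase genes, 2 of which also stand among the proteasome-associated factors, the median was 0.08. otub-4 was at 0.54 in a shared probe set. The mean of 0.50 for cyld-1 came from 1 dim probe set at 6 and 42.2, as its brighter ones were at 0.05 and 0.03. The COP9 signalosome, which removes NED-8 from cullins and is built like the proteasome lid from PCI and MPN domain subunits, had 6 of 7 genes higher and a median of 0.19. Its highest values were those of csn-6, at 998.3 and 1272 (0.34), and csn-1, at 572.6 and 689.6 (0.26), and csn-4 was the one lower gene, at −0.09. The lid of the proteasome, with a median of 0.01, was not tested against it.

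Other large complexes are set beside the subunits as a measure. Of 62 cytosolic ribosomal protein genes, 46 were lower, the median was −0.05, and 69.4% lay within 0.1 log2 units, beside 66.7% of the proteasome subunits; rpl-42 was at 1.20 but from dim signal (4.80 and 31.7), and rps-7 was at −0.27. After median centring the ribosomal median was 0.0029. The cytosolic chaperonin, a ring complex that folds actin and tubulin, had 4 genes higher and 4 lower, a median of 0.04 and 37.5% within 0.1, with cct-3 at 0.44 and cct-8 at −0.26, both dim. The vacuolar proton pump had 13 of 18 genes lower, a median of −0.10 and 33.3% within 0.1, with vha-12 at −0.35 and vha-16 at 0.24. No difference between these complexes and the proteasome was tested.

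**Figure D4:**
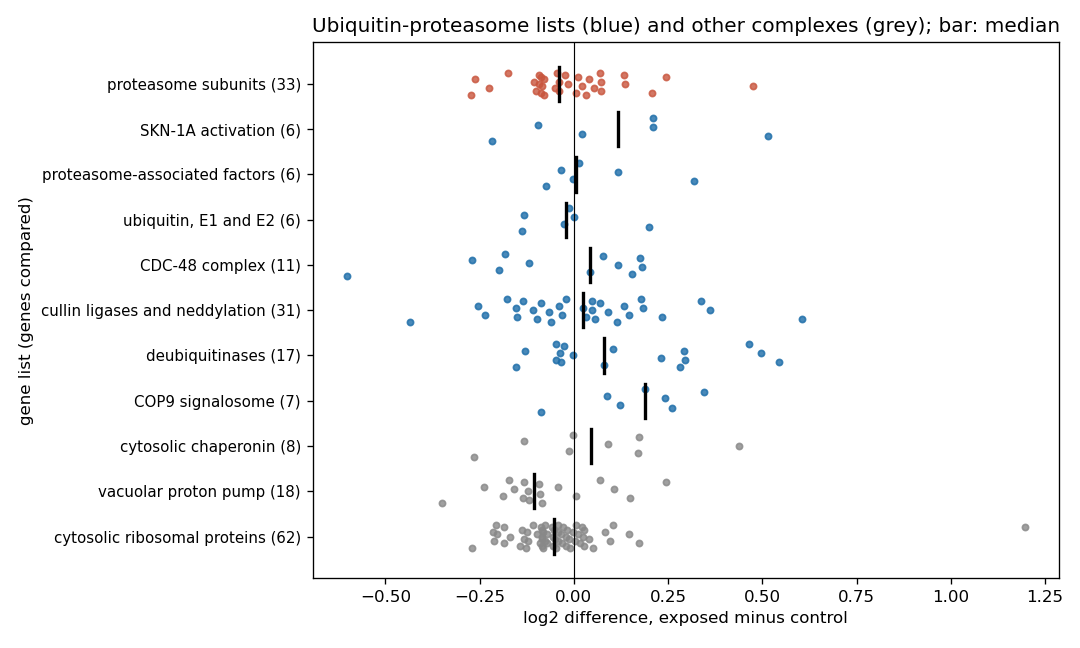
Log2 difference (exposed minus control) of each gene compared, as dots, for the proteasome subunits (red), the lists of the ubiquitin-proteasome pathway (blue) and other complexes (grey), with medians as bars and the number of genes in brackets. The proteasome median is −0.04 and the highest list median is 0.19, for the COP9 signalosome.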

How the data were processed

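Per the labels' protocols, total RNA was extracted with Trizol and turned into biotin-labelled cRNA for Affymetrix arrays. The authors deposited a linear intensity for each probe set. Transcriptome Analysis Console is named by the submitters' processing notes; its version and its summary and scaling methods (not given in the sources used here) are unknown. There are no detection calls. The platform annotation names 1 gene for 20766 of 22548 probe sets, several for 887 and none for 895; only the first were used.

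From the deposited intensities, log2(intensity + 16) was taken, which understates the change of dim genes, and averaged over a gene's probe sets. Of 17118 genes, 13605 were compared, those at or above percentile 25 of the probe sets on the array where the gene was brighter. Differences are exposed minus control. Calls used 1.5-fold and 2-fold; no test was run with 1 array per group. Probe sets ending in _s_at, _x_at or _a_at are called shared. Technical spread is the root mean square difference of a gene's 2 probe sets, divided by the square root of 2. Brightness classes of 25% of the genes each used the mean of both arrays. Neighbours came from a RefSeq table (WBcel235) in gene order.

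The members and lists were chosen with earlier results of these data known. Every member was named, with the 2 largest differences of each list and skn-1, ubq-1, ubq-2, cdc-48.1, cdc-48.2 and dss-1; other genes were added after their values were seen. The limits of 0.1 and 0.2 were set after the data were seen. A search of promoters for a SKN-1 motif was not run, as no sequences were used here. The steps were tested on simulated data. The 9 alternatives were 3 scalings, 2 brightness filters, the brightest probe set of a gene, no shared probe sets, and pseudocounts of 1 and 64. Calculations used Python 3.11.15 with pandas 2.3.3, numpy 2.4.6, statsmodels 0.14.6 (loess, span 30%) and scipy 1.17.1, and plots matplotlib 3.10.9.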

Additional observations from a re-analysis of the deposited data

How the results depend on the processing

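No paired analysis was possible because a group is a single array. No proteasome subunit reached 1.5-fold in any of the 9 alternatives. A subunit read by 1 probe set could change its sign only under the 3 scalings. Of the 33 subunits, 27 kept their sign in every alternative that measured them (13 lower, 14 higher). The other 6 (pas-3, pas-6, pbs-3, rpn-8, rpn-13, rpt-4) turned only with median centring of the arrays, which adds to every difference 0.056 log2 units. Under that centring the subunit median was 0.018, the median of the other regulatory particle subunits (rpn genes) 0.018, that of the alpha ring 0.011, that of ubiquitin, E1 and E2 0.036, and those of the ribosomal proteins 0.0029, CDC-48 complex 0.098, cullin ligases 0.079, deubiquitinases 0.136 and proton pump −0.049. The base ATPase median was −0.0015 under loess and −0.0052 under quantile normalization, and the proteasome-associated median −0.0005 under loess. Quantile normalization gave −0.020 for the ribosomal proteins. Without shared probe sets 13 subunits were left, 8 of them lower; the beta ring, by then only pbs-4, was at 0.132 and the base ATPases, by then 3 genes, at −0.105. In the same setting the medians were 0.209 for SKN-1A activation, −0.055 for proteasome-associated factors (2 genes), −0.023 for the CDC-48 complex, −0.031 for cullin ligases, 0.0044 for deubiquitinases and −0.026 for the chaperonin, over fewer genes. With the brightest probe set the CDC-48 median was −0.033 and the deubiquitinase median 0.034, and the stricter brightness filter (median of all probe sets) gave −0.039 for CDC-48; the cause of these was not tested. Without replicates or detection calls, the signal of dim probe sets limits what the arrays can show.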
